A study of Homo sapiens with 2 samples.

Results

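Genes of sterol and fatty acid synthesis were compared between GFP-SAS cells given an inhibitor of miR-361-3p and GFP-SAS cells given a non-target oligonucleotide. The set was chosen by gene symbol and held 34 genes. Of these, 32 had probe sets annotated to that symbol alone, out of 18239 genes with such probe sets in the table. They comprised 16 enzymes of the sterol branch, 11 enzymes of the fatty acid branch and 5 genes of sterol regulation and transport. FDFT1 and ACSL3 were not analysed here. The 32 genes were read by 85 probe sets, of which 73 were at or above the median of either array and were retained, and each of the 32 genes kept at least 1.

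GFP-SAS is a green fluorescent derivative of SAS, an established squamous carcinoma line from the tongue. Both cultures were exposed for 24 h to an antisense strand of LNA and DNA at 25 nM. It targeted miR-361-3p in the anti-miR culture and nothing in the control. The oligonucleotide is the stated difference between them, and 10 ng of total RNA from each went onto 1 Affymetrix array. With 1 array per group there is no replicate error, no test between the treatments and no p-value. A transcript level on such an array does not tell fewer cells with that transcript from less of it per cell.

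Sterol synthesis builds acetyl-CoA into mevalonate, isoprenoids, squalene and finally cholesterol. Fatty acid synthesis starts from the same acetyl-CoA, extends it to a saturated chain, and then elongates and desaturates that chain. SREBP transcription factors act on both branches: SCAP escorts them from the endoplasmic reticulum when sterols are low, INSIG proteins hold them back when sterols are plentiful, and SREBP-2 and SREBP-1 act mainly on sterol and on fatty acid genes. Many carcinoma lines run both branches to supply membranes.

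The inhibited microRNA is shown because it is the sole stated difference between the cultures. Its mature strand, as RefSeq gives it for GRCh38.p14 at chrX:85903641-85903663 on the minus strand, has its seed, bases 2 to 8, in capitals.
hsa-miR-361-3p: uCCCCCAGgugugauucugauuu

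Values are log2 expression, and differences are the anti-miR array minus the control array. A gene's value is the mean over its retained probe sets, and SD is the spread over those probe sets, a technical spread within 1 pair of arrays. That SD was 0.29 when pooled across the 6263 genes that kept more than 1 probe set. Genes at least 1.5-fold apart were counted as higher or lower. Over all 11272 genes the median difference was 0.13 and the quartiles were -0.21 and 0.33. The gap between 3' and 5' control probe sets, a sign of RNA quality, changed by 0.03 (GAPDH) and 0.04 (ACTB) from array to array. The 12 probe sets of the poly-A spikes read 0.32 ± 0.19 (SD) higher for the anti-miR culture. The 9 probe sets of the hybridization controls read 0.09 ± 0.10 (SD) higher. GAPDH differed by -0.005 (1 probe set) and ACTB by -0.13 (3 probe sets). The squamous label was checked against 10 epithelial markers: of 7 with probe sets, KRT5, CDH1, S100A2, DSP and JUP exceeded the highest of the 23 nonspecific control probe sets on both arrays. That highest value was 7.16 for the anti-miR culture and 6.87 for the control. The mean poly-A levels, 6.29 and 5.97, were below it. None of the 4 leukocyte (5 listed), 4 endothelial, 5 fibroblast, 4 adipocyte and 3 hepatocyte markers with probe sets exceeded it on both arrays.

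Of the 32 genes, 1 was at least 1.5-fold higher and 7 (21.9%) were at least 1.5-fold lower on the anti-miR array, where 928 (8.23%) of all 11272 genes were higher and 1602 (14.2%) were lower. The higher gene was SC5D. The lower genes were HMGCS1, CYP51A1 and MSMO1 in the sterol branch and ME1, ACACA, ELOVL5 and ELOVL6 in the fatty acid branch. The median over the 32 genes was 0.17, against 0.13 for all genes, and 17 of the 32 (9 of 16 sterol and 4 of 11 fatty acid genes) exceeded the median gene. With all differences centred on the median gene, the same 7 genes were lower and SC5D, at 0.56, was short of the threshold, beside 499 genes higher and 1951 lower in the whole table. Of 26 genes with at least 2 retained probe sets, these differed in the same direction in 24, SQLE and LSS being the exceptions. That share was not computed for all genes, so the count is not read as a result about this set.

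**Figure D1:**
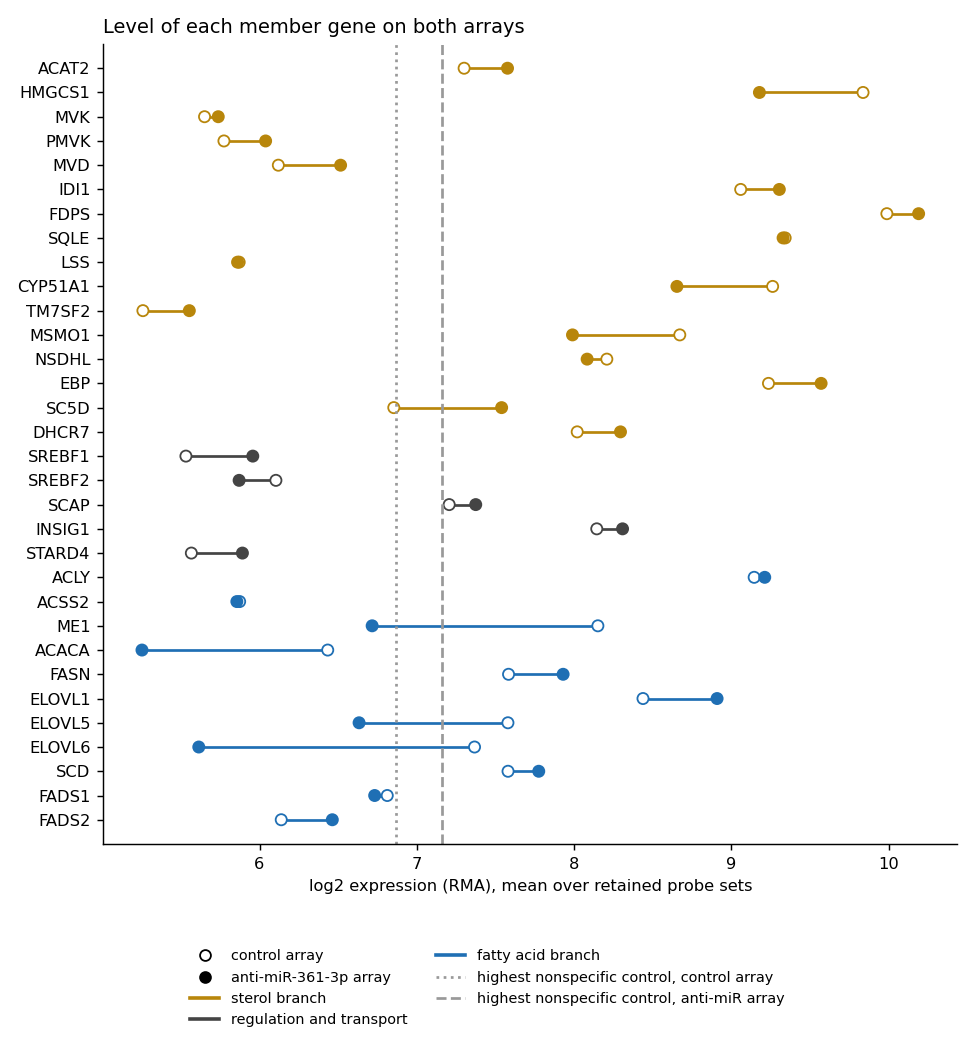
Level of each of the 32 genes on the control array (open circles) and the anti-miR array (filled circles), as log2 expression averaged over retained probe sets, with the highest nonspecific control of each array as a vertical line. ELOVL6 has the longest connecting line, from 7.37 on the control array to 5.61 on the anti-miR array, and SQLE has nearly coincident circles at 9.34 and 9.33.

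No gene of the regulatory and transport group passed 1.5-fold. SREBF1, which encodes SREBP-1, was 5.53 on the control array and 5.96 on the anti-miR array, a difference of 0.43 ± 0.24 (SD over 3 probe sets). Its probe sets ranged from 0.22 to 0.69, so that SREBF1 was past 1.5-fold when read by its brightest probe set alone. SREBF2, which encodes SREBP-2, went the other way, at 6.10 on the control array and 5.87 on the anti-miR array, a difference of -0.23 ± 0.04 (SD over 3 probe sets). The probe sets of SREBF1 were thus all higher and those of SREBF2 all lower on the anti-miR array. In genomic length SREBF1 has 25.7 kb and SREBF2 74.2 kb. Over the whole table the median difference was 0.22 for genes up to 50 kb and -0.27 for longer genes. The part of length in this contrast was not tested. As gene means, SREBF1 and SREBF2 were inside the nonspecific range on both arrays, so the sizes are not exact. SREBF2 had 1 probe set above that range on the control array, at 7.02.

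SCAP was 7.21 on the control array and 7.37 on the anti-miR array, a difference of 0.17 ± 0.01 (SD over 2 probe sets). INSIG1, itself a target of SREBPs, was 8.14 and 8.31, a difference of 0.16 ± 0.13 (SD over 3 probe sets). STARD4, a carrier of cholesterol between membranes, was 5.57 and 5.89, a difference of 0.32 ± 0.08 (SD over 3 probe sets). STARD4 lay within the nonspecific range on both arrays. The differences of SCAP and INSIG1 were close to the 0.13 of the median gene.

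In the mevalonate and isoprenoid steps, HMGCS1 was lower on the anti-miR array and the other 6 genes were not. HMGCS1, HMG-CoA synthase, joins acetyl-CoA to acetoacetyl-CoA. Its probe sets read 9.55 and 10.12 on the control array and 8.89 and 9.47 on the anti-miR array. Both were lower by nearly the same amount, giving a difference of -0.66 ± 0.01 (SD over 2 probe sets), or 1.58-fold, and rank 1426 of 11272 by decrease. ACAT2, the cytosolic thiolase that supplies acetoacetyl-CoA, was 7.30 on the control array and 7.58 on the anti-miR array (0.28 ± 0.10, SD over 3 probe sets). ACAT2, which acts just before HMGCS1, thus did not share its direction.

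MVK and PMVK, the kinases that phosphorylate mevalonate, differed by 0.09 and 0.26. MVD, the decarboxylase that follows, was 6.12 on the control array and 6.52 on the anti-miR array (0.40, 1 probe set). MVK, PMVK and MVD lay within the nonspecific range on both arrays. IDI1, an isomerase of isoprenoid units, was 9.06 and 9.31, a difference of 0.25 ± 0.12 (SD over 2 probe sets). FDPS, farnesyl diphosphate synthase, was 9.99 and 10.19, and its 2 probe sets each differed by 0.20. All 6 of these genes had positive differences short of 1.5-fold, and MVK alone of them lay below the median gene.

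From squalene to cholesterol, 2 of 9 genes (22.2%) were lower, 1 was higher and 6 lay within 1.5-fold. Of all genes, 14.2% were lower and 8.23% higher. SQLE, squalene epoxidase and a known control point, was 9.34 on the control array and 9.33 on the anti-miR array, with 4 probe sets between -0.07 and 0.02. LSS, which folds the product into lanosterol, differed by -0.01 on average, with probe sets at -0.20 and 0.18. LSS lay within the nonspecific range on both arrays. CYP51A1, the cytochrome P450 that demethylates lanosterol, read 10.48 and 8.05 on the control array and 9.74 and 7.57 on the anti-miR array. Its difference was -0.61 ± 0.19 (SD over 2 probe sets), or 1.52-fold lower, just past the threshold, with the second probe set at -0.47.

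MSMO1, the methylsterol oxidase that acts after CYP51A1, had 3 retained probe sets. They read 7.98, 8.58 and 9.46 on the control array and 7.20, 7.80 and 8.97 on the anti-miR array. All 3 were lower, by -0.78, -0.78 and -0.49, which gave -0.68 ± 0.17 (SD over 3 probe sets), or 1.60-fold. A dim probe set of MSMO1, at 3.14 and 3.36, differed by 0.21, and with it in the mean the difference was -0.46, short of 1.5-fold. NSDHL, a dehydrogenase that works with MSMO1, was 8.21 on the control array and 8.08 on the anti-miR array (-0.13, 1 probe set). TM7SF2, a sterol reductase, differed by 0.30 from 1 retained probe set, within the nonspecific range.

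EBP, a sterol isomerase, was 9.24 on the control array and 9.57 on the anti-miR array (0.33 ± 0.04, SD over 2 probe sets). SC5D, the desaturase after EBP, was the single higher gene. Its 4 probe sets read 5.45, 8.45, 7.32 and 6.19 on the control array and 5.91, 9.22, 7.94 and 7.09 on the anti-miR array. All 4 were higher, by 0.46, 0.78, 0.61 and 0.89, giving 0.69 ± 0.19 (SD over 4 probe sets), or 1.61-fold. DHCR7, a late reductase on the way to cholesterol, was 8.02 and 8.30 (0.28, 1 probe set). The mean control level of SC5D, 6.85, lay just within the nonspecific range, so its fold is not exact.

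**Figure D2:**
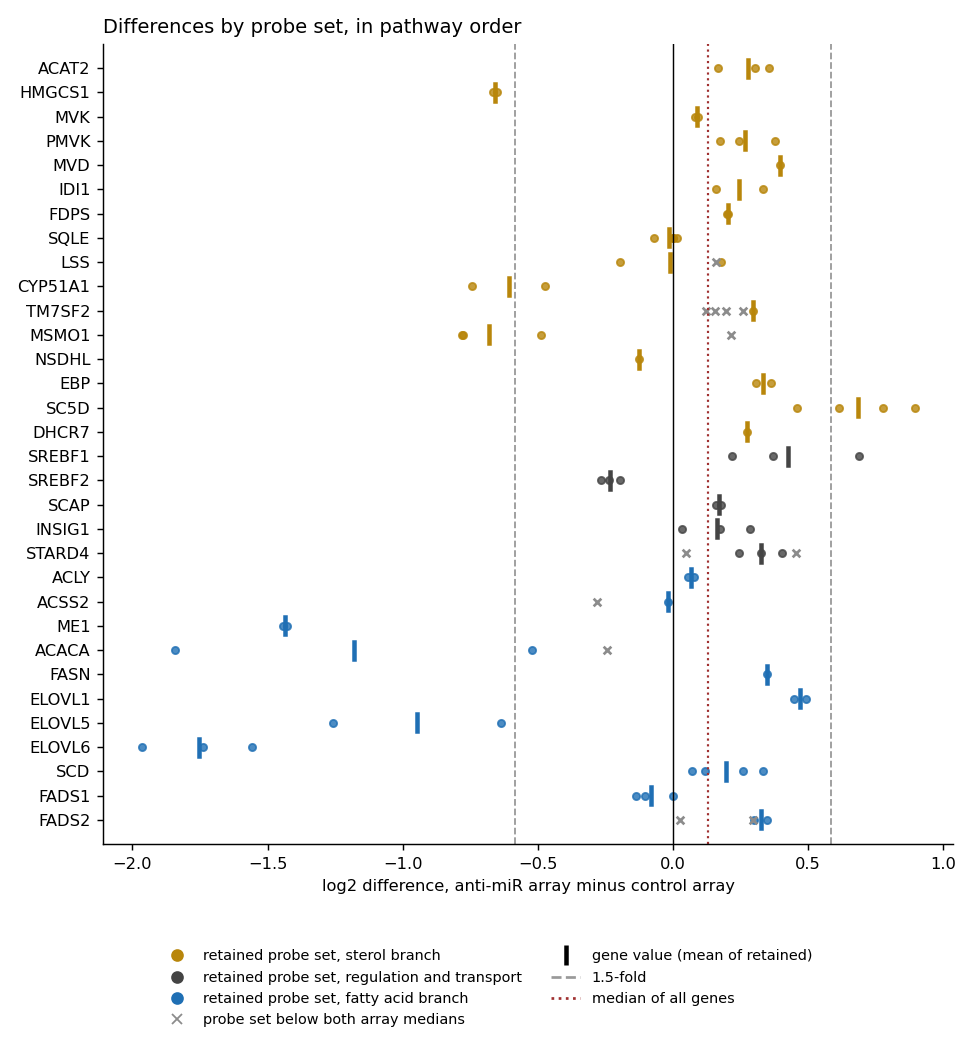
Log2 difference (anti-miR array minus control array) of every probe set, in pathway order, with the gene value as a bar, dim probe sets as crosses, 1.5-fold as dashed lines and the median of all genes as a dotted line. HMGCS1, CYP51A1 and MSMO1 stand left of neighbours near or above 0, and the probe sets of ACACA are the most spread, from -1.84 to -0.25.

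The sequences upstream of the 3 lower sterol genes and of SC5D are shown because these were the sterol genes past 1.5-fold. SREBF2 is shown because its window held the only match to a sterol regulatory element. Each line gives the 200 bases before the start site farthest upstream, from the RefSeq promoters of GRCh38.p14. Capitals mark matches on either strand to the sterol regulatory element TCACNCCAC, the E-box CACGTG or the CCAAT box CCAAT, of which no match overlaps another. SREBPs bind the first 2 motifs, and NF-Y, which often acts beside them, binds the CCAAT box. HMGCS1 lies at chr5:43313413-43313612 on the minus strand and CYP51A1 at chr7:92134478-92134677 on the minus strand. MSMO1 lies at chr4:165327469-165327668, SC5D at chr11:121292571-121292770 and SREBF2 at chr22:41832905-41833104, all on the plus strand.
HMGCS1: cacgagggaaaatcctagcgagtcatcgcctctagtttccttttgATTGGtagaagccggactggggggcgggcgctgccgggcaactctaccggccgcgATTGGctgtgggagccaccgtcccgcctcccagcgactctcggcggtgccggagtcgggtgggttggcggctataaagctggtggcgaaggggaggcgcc
CYP51A1: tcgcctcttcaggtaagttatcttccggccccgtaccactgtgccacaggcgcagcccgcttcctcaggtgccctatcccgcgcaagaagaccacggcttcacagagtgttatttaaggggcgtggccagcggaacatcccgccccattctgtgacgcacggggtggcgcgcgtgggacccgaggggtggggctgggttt
MSMO1: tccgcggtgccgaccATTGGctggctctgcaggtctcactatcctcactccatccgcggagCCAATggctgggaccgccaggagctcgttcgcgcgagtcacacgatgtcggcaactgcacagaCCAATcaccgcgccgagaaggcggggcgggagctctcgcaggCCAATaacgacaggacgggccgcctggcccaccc
SC5D: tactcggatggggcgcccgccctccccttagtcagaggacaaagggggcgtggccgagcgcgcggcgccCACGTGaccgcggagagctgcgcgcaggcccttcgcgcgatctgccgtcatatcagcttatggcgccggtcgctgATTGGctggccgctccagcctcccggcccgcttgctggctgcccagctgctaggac
SREBF2: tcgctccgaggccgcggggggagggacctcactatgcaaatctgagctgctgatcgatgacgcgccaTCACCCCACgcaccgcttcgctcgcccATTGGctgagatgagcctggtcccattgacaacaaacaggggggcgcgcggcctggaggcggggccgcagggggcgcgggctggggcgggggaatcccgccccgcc

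The 3 lower sterol genes had no matching motif in common in these windows. MSMO1 held 4 CCAAT boxes and HMGCS1 2, CYP51A1 held no match to any of the 3 motifs, and SC5D held 1 E-box and 1 CCAAT box. Over windows of 300 bases, 250 before and 50 after a start, 30 of the 34 genes had an entry, and ACAT2, FDFT1, SQLE and FASN had none. A CCAAT box was found for 23 of these 30 genes (76.7%), against 39.7% of 27305 genes in the table. An E-box was found for 5 (16.7%), against 8.77%, and the sterol regulatory element for SREBF2 alone (3.33%), against 1.39%. These are descriptions of letters in a window and say nothing of binding.

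In the fatty acid branch, 4 of 11 genes (36.4%) were lower by more than any sterol gene, and none was higher by 1.5-fold. Of all genes, 14.2% were lower and 8.23% higher. ME1, malic enzyme, which makes NADPH for lipid synthesis, read 7.96 and 8.34 on the control array and 6.53 and 6.90 on the anti-miR array. Its 2 probe sets were nearly alike, with a difference of -1.44 ± 0.01 (SD over 2 probe sets), or 2.70-fold lower, and rank 355 by decrease. ACLY, which cleaves citrate to cytosolic acetyl-CoA, was 9.15 on the control array and 9.21 on the anti-miR array (0.07 ± 0.02, SD over 2 probe sets). ACSS2, which makes acetyl-CoA from acetate, differed by -0.02 (1 retained probe set of 2), within the nonspecific range. Of the supply enzymes, ME1 alone was past 1.5-fold.

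ACACA, acetyl-CoA carboxylase, which commits acetyl-CoA to fatty acids, had 2 retained probe sets. They read 8.02 and 4.85 on the control array and 6.18 and 4.33 on the anti-miR array, a difference of -1.18 ± 0.93 (SD over 2 probe sets), or 2.27-fold lower. The probe sets differed in size, at -1.84 and -0.52, and another probe set, dim on both arrays, was at -0.25. FASN, the synthase that acts directly after ACACA, was 7.58 on the control array and 7.93 on the anti-miR array (0.35, 1 probe set). These consecutive enzymes differed in opposite directions.

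The elongases were split. ELOVL6, which extends palmitate, had the largest difference of the 32 genes and rank 172 of 11272 by decrease. Its 3 probe sets read 7.33, 6.91 and 7.86 on the control array and 5.59, 4.94 and 6.30 on the anti-miR array. All 3 were lower, giving -1.75 ± 0.20 (SD over 3 probe sets), or 3.37-fold. ELOVL5, which extends polyunsaturated chains, read 6.10 and 9.06 on the control array and 5.46 and 7.80 on the anti-miR array, a difference of -0.95 ± 0.44 (SD over 2 probe sets), or 1.93-fold lower. ELOVL1, which extends very long saturated chains, was 8.44 and 8.91, a difference of 0.47 ± 0.03 (SD over 2 probe sets).

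The desaturases lay within 1.5-fold. SCD, which makes oleate, was 7.58 on the control array and 7.78 on the anti-miR array (0.20 ± 0.12, SD over 4 probe sets). FADS1 and FADS2, neighbouring genes that desaturate polyunsaturated chains, differed by -0.08 ± 0.07 (SD over 3 probe sets) and 0.32 ± 0.03 (SD over 2 probe sets). On the anti-miR array, ME1 (6.72), ACACA (5.25), ELOVL6 (5.61) and ELOVL5 (6.63) lay within the nonspecific range as gene means, so these folds are not exact. ACACA, at 6.43, lay within it on the control array too. The gene means of FADS1 and FADS2 lay within it on both arrays. The upper ELOVL5 probe set, at 7.80, lay above that range, as did HMGCS1, CYP51A1 and MSMO1 on both arrays.

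**Figure D3:**
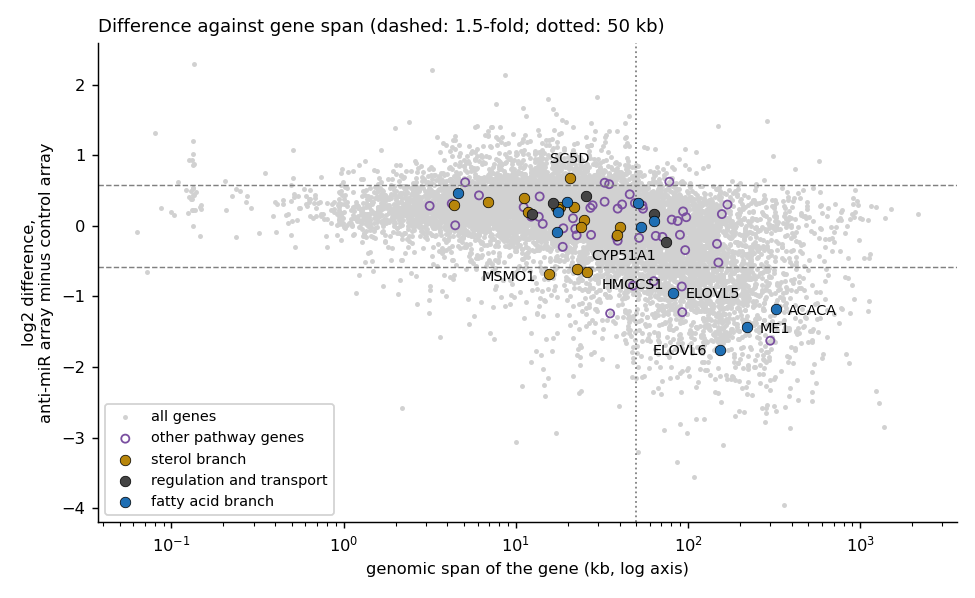
Log2 difference (anti-miR array minus control array) against the genomic span of each gene in kb, on a log axis, for all genes in grey, the other pathway genes as open circles and the 3 groups in colour. ME1, ACACA, ELOVL5 and ELOVL6 lie to the right of the dotted line at 50 kb, whereas HMGCS1, CYP51A1 and MSMO1 lie to the left of it.

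Gene span moved with the difference, both here and over the whole table, and its part in these results was not tested. Span is the genomic length in the RefSeq gene table. ELOVL5, ELOVL6, ME1 and ACACA span 81.5, 153.4, 220.7 and 321.8 kb and are the 4 longest of the 32 genes. Over the 32 genes Spearman's rho between difference and span was -0.61, over the 11 fatty acid genes -0.79 and over all 11261 genes with a span -0.49, all within 1 pair of arrays. Of 9 of the 32 genes over 50 kb, 4 (ME1, ACACA, ELOVL5 and ELOVL6) were lower, where 34.2% of 3639 such genes in the table were lower. The other 5, ACLY, ACSS2, FADS2, SCAP and SREBF2, lay within 1.5-fold. The share of 34.2% pools unlike spans. Of the 1806 longest genes in the table, which include ME1, ACACA and ELOVL6, 860 were lower, with a median of -0.53. Of the remaining 1833 genes over 50 kb, which include ELOVL5 and these 5, 384 were lower, with a median of -0.10.

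The lower sterol genes were not long. HMGCS1, CYP51A1 and MSMO1 span 25.9, 22.7 and 15.5 kb, and all 16 sterol genes span at most 40.3 kb. Of 23 of the 32 genes at or under 50 kb, these 3 were lower, where 4.66% of 7622 such genes in the table were lower, and SC5D alone was higher, where 11.3% were. The share of 4.66% pools unlike spans too. Of the 3054 genes from 20 to 50 kb, which include HMGCS1 and CYP51A1, 246 were lower. Of the 1991 genes from 10 to 20 kb, which include MSMO1, 60 were lower. The count of 3 is small, and no test across cultures is possible.

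The branches differed in their medians. The sterol branch had a median of 0.22 over 16 genes, with 1 higher and 3 (18.8%) lower. The fatty acid branch had a median of -0.02 over 11 genes, with 0 higher and 4 (36.4%) lower. Of all genes, 8.23% were higher and 14.2% lower. The sterol median exceeded the fatty acid median by 0.24. With genes up to 50 kb alone, a comparison added after seeing the data, the 4 fatty acid genes FASN, ELOVL1, SCD and FADS1 had a median of 0.27, and the sterol median minus the fatty acid median was -0.05. That limit removes all 4 lower fatty acid genes and no sterol gene, so the higher fatty acid median follows from the choice of limit. The gaps of 0.24 and -0.05 are both smaller than the pooled SD of 0.29 over probe sets. That SD is not the spread of a gap between medians. The 5 regulatory and transport genes had a median of 0.17.

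Apart from the 7 lower genes, the differences were mostly positive, and SC5D alone was past 1.5-fold. Leaving out genes because they were lower raises a median by choice, so these medians are not read as a result. The other 13 sterol genes without HMGCS1, CYP51A1 and MSMO1 had a median of 0.26 and ranged from -0.13 to 0.69, SC5D included. The other 7 fatty acid genes had a median of 0.20 and ranged from -0.08 to 0.47. Of all 32 genes, 8 exceeded the 0.32 by which the poly-A controls were higher, and 24 did not. Genes of up to 50 kb in the whole table had a median of 0.22.

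**Figure D4:**
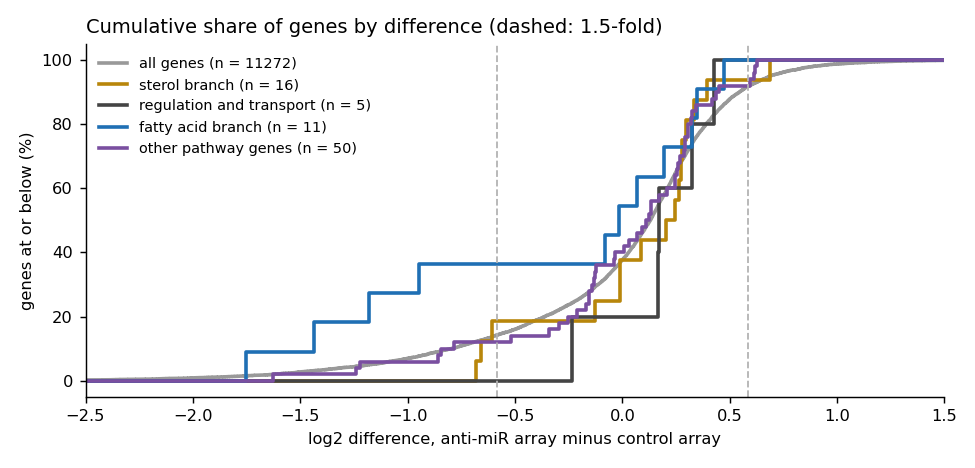
Cumulative share of genes, in percent, at or below each log2 difference (anti-miR array minus control array), for all genes, the 3 groups and the other pathway genes. The fatty acid curve lies above the others from -1.75 up to about its median of -0.02, since 4 of its 11 genes are lower by 1.5-fold, while the regulatory group has no gene past either dashed line.

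Of 62 other genes of sterol, isoprenoid and fatty acid metabolism that were listed, 50 were measured, and 4 were higher and 6 lower, with a median of 0.12. These counts were near the shares over all genes, 8.23% higher and 14.2% lower, so they set the list apart in neither direction. The higher genes were MYLIP, a ubiquitin ligase for lipoprotein receptors (0.59), MID1IP1, an activator of acetyl-CoA carboxylase (0.62), and the glycerolipid enzymes GPAM (0.63) and DGAT2 (0.61). All 4 were just past the threshold, and 0 were past it once centred on the median gene. The gene means of MYLIP, GPAM and DGAT2 lay within the nonspecific range on both arrays. The lower genes were NUS1, a subunit of the dolichol-forming prenyltransferase, MBTPS1, the protease that makes the initial cut in SREBPs, ACSL4, an acyl-CoA synthetase, and ELOVL7, HSD17B12 and HACD3. NUS1 was 8.01 on the control array and 6.77 on the anti-miR array, or 2.36-fold lower with a span of 35.3 kb. Its anti-miR level lay within the nonspecific range, so the fold is not exact. MBTPS1 was 5.82 and 5.04, within the nonspecific range on both arrays (-0.78, 1 retained probe set of 3). With all 3 in the mean the difference of MBTPS1 was -0.34, short of 1.5-fold. ACSL4 was 9.64 and 8.78 (-0.86, 1 retained probe set of 2), and -0.59 with both probe sets, still past 1.5-fold.

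ELOVL7, HSD17B12 and HACD3 act in the elongation cycle with ELOVL5 and ELOVL6. HSD17B12, its ketoacyl reductase, was 9.15 on the control array and 7.52 on the anti-miR array, or 3.09-fold lower with a span of 299.9 kb. HACD3, a dehydratase, was 8.92 and 8.07, or 1.80-fold lower with a span of 47.9 kb. ELOVL7, with a span of 92.5 kb, was 6.24 and 5.02, a difference of -1.22 within the nonspecific range on both arrays, so its size is not exact. The remaining measured genes of the cycle lay within 1.5-fold, namely ELOVL1 (0.47), ELOVL4 (0.34), HACD2 (0.21) and TECR, the last reductase (-0.15). Of these, ELOVL4 lay within the nonspecific range on both arrays. The cycle was grouped after the values were seen, so no count over it is read. ELOVL5, ELOVL6, ELOVL7 and HSD17B12 are over 50 kb, a class in which 34.2% of all genes were lower. ELOVL6 and HSD17B12 are also among the 1806 longest genes, of which 860 were lower.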

How the data were processed

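Per the submitters' processing notes, RMA was the method by which the authors made the deposited log2 values, 1 per probe set. This method subtracts background, aligns array distributions and combines probes, so differences are relative to the other genes. Its version and software are not stated. Of 49386 probe sets, 45253 that were not array controls carried 1 gene symbol in the platform annotation, and 45172 of them were renamed through the RefSeq table of GRCh38.p14 by Entrez ID. Probe sets at or above the array's median (4.64 and 4.63) on at least 1 array were retained, 24127 in all. Gene values are their means. The files hold no detection calls, and precision is limited by having 1 array per group.

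All 34 symbols were to be described by group. Of the other pathway genes, those past 1.5-fold were to be named. The members and lists were chosen with earlier results of these data known. Alternatives were no filter, a 75th percentile filter, the highest or median probe set, centring on the median or a lowess trend (fraction 0.3), plain _at probe sets and a 2-fold threshold. Python 3.11.15 was used with pandas 2.3.3, numpy 2.4.6, statsmodels 0.14.6, scipy 1.17.1 and matplotlib 3.10.9.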

Additional observations from a re-analysis of the deposited data

Results flagged for a closer look

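The poly-A spike controls, bacterial transcripts outside the gene comparison, exceeded their control level by 0.32 on the log2 scale for the anti-miR culture (12 probe sets). Their part in the small positive differences of the sterol and fatty acid genes was not tested.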

How the results depend on the processing

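No array could be left out with 1 per group, and no replicate block could be fitted. No paired analysis was possible because there was a single culture of each kind. Without a detection call, signal over background limits the folds of dim genes. Centring on the median gave medians of 0.093 (sterol), 0.038 (regulation), -0.15 (fatty acid) and -0.013 (other pathway), and a lowess trend 0.096 (sterol), -0.11 (fatty acid) and -0.0033 (other pathway); both left 0 sterol and 0 other pathway genes higher, and 499 and 547 of all genes. A 2-fold threshold left 0 sterol genes higher and 0 lower, 0 and 3 other pathway genes, and 139 and 787 of all genes. Plain _at probe sets kept 2 sterol genes (median -0.24, turned in sign, 0 higher, 0 lower), 1 fatty acid gene (-1.43, 1 lower, a gap between branches of 1.19) and 10 other pathway genes (0.22, 0 higher, 1 lower), with 318 higher and 507 lower of 3438 genes in all. The other pathway median was 0.061 with no filter and 0.17 with the stricter filter. The stricter filter and the highest probe set each put 1 regulatory gene, SREBF1, past 1.5-fold (0.69). Genes up to 50 kb alone, added after seeing the data, gave medians of 0.32 (regulation), 0.27 (fatty acid) and 0.25 (other pathway), 0 fatty acid and 2 other pathway genes lower, 355 lower in all and a gap between branches of -0.047. ME1, ACACA, ELOVL5, ELOVL6 and HMGCS1 stayed past 1.5-fold wherever they could be computed under the alternatives that kept this threshold. CYP51A1 was short of it with plain _at probe sets (-0.47), MSMO1 with no filter (-0.46) and with the highest probe set (-0.49), and SC5D with median (0.56) and lowess (0.58) centring. Of 188 single-gene values under the alternatives, 183 moved by less than the pooled SD over probe sets, and 0 of the called genes turned in sign. Part of that count was fixed in advance, so it does not measure robustness. Centring on the median moves every gene by 0.13, less than the pooled SD of 0.29. Dropping the filter cannot move the 25 genes that kept all their probe sets. The highest or median probe set cannot move the 6 genes with 1 retained. The remaining causes were not tested.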
